A study of Mus musculus with 6 samples.

Results

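The genes described here are the replication-dependent histone genes, which supply the bulk of the histone protein that packages newly made DNA. Array rows were taken where every gene in the platform annotation carried one of the current cluster names, H1f1 to H1f6, H2ac, H2bc, H3c or H4c followed by a digit, or an older name beginning Hist1h to Hist4h. The rule found 44 of the 28856 rows of the table, 27 naming 1 gene and 17 naming several. The 27 single-gene rows stood for 5 linker H1 genes, 4 H2A genes, 9 H2B genes, 3 H3 genes and 6 H4 genes, of which 23 lie on chromosome 13 and 4 on chromosome 3. A further 9 rows listed these genes together with a gene outside the rule, and 4 rows held genes formerly named Hist3h or Hist4h whose current names fall outside it. Both are given separately.

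Whole brains were taken at embryonic day 16.5, dissected from olfactory bulb to brain stem, and RNA from each mouse brain was run on 1 Affymetrix Mouse Gene 1.0 ST array. The 3 wild-type brains carried Tdp2+/+ and the 3 mutant brains the deletion allele Tdp2Δ1-3, and no treatment was given. Tdp2 encodes a phosphodiesterase that removes trapped topoisomerase II from the ends of DNA breaks. The labels name no promoter, Cre line, strain, sex or litter, and the sources used here do not say whether the mutants were homozygous. The values were log2 values centred on each row's median over the 6 arrays, so they show differences between brains but no level. Brain identity could therefore not be checked from the level of marker genes. Centring also places the nearest wild-type and mutant values at equal distances from 0 wherever the genotypes do not overlap. The medians of the arrays over all rows lay between -0.011 and 0.014. Only 3 arrays per genotype limit the precision of each difference. In whole-brain RNA, a change in the number of cells of a type and a change in RNA per cell cannot be told apart.

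Tdp2 followed the labels. Its centred values were 0.90, 1.10 and 1.34 in wild-type brains against -1.05, -0.90 and -0.94 in mutant brains, and the gene fell by 2.07 ± 0.10 on the log2 scale (moderated SE, n = 3 per genotype, limma adjusted p = 0.00035). The row may also hold probes outside the deleted part.

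Replication-dependent histone genes have no introns and are transcribed in S phase, when new chromatin is assembled. Their messages end in a stem-loop in place of a poly(A) tail. The stem-loop binding protein Slbp holds that end, and Npat switches the genes on downstream of cyclin E and Cdk2. H2A, H2B, H3 and H4 form the nucleosome core, and H1 binds the linker DNA. In the embryonic brain dividing progenitors are the main users of these genes, whereas postmitotic neurons rely more on replacement histones made throughout the cell cycle.

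Most histone genes were higher in the mutant brains, by modest amounts. Of the 27 genes, 12 rose and 1 fell at an adjusted p under 0.05 (limma moderated test, two-sided, adjusted over 23410 rows). The background over all rows tested was 2.34% higher and 4.13% lower, or 6.47% in either direction, against 44.4% and 3.70% of the histone genes. The median difference, mutant minus wild type, was 0.27 on the log2 scale, which is 1.21-fold, and the genes ranged from -0.37 to 0.71. Over all rows tested the median was 0.013. In 22 of the 27 genes every mutant brain lay above every wild-type brain, and in 1 every mutant lay below. The background for these patterns was 13.1% and 12.6%, or 25.7% for either. Of the 27 differences 25 were above 0, against 56.8% of all rows. At the 1.5-fold limit of the series text, 2 histone genes rose and none fell, against backgrounds of 0.188% and 0.453%. By limma at an unadjusted p under 0.05, 21 genes were higher and 1 lower, against backgrounds of 10% and 11.8%. Leaving out wild-type replicate 2 gave 4 rises and leaving out mutant replicate 2 gave 1, and the number lay between 9 and 14 without any other array. Calls were lost over the whole table in the same fits, from 548 rises over all rows to 118 and 32, with 197 to 862 without any other array. The median stayed between 0.23 and 0.33 in those fits.

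**Figure D1:**
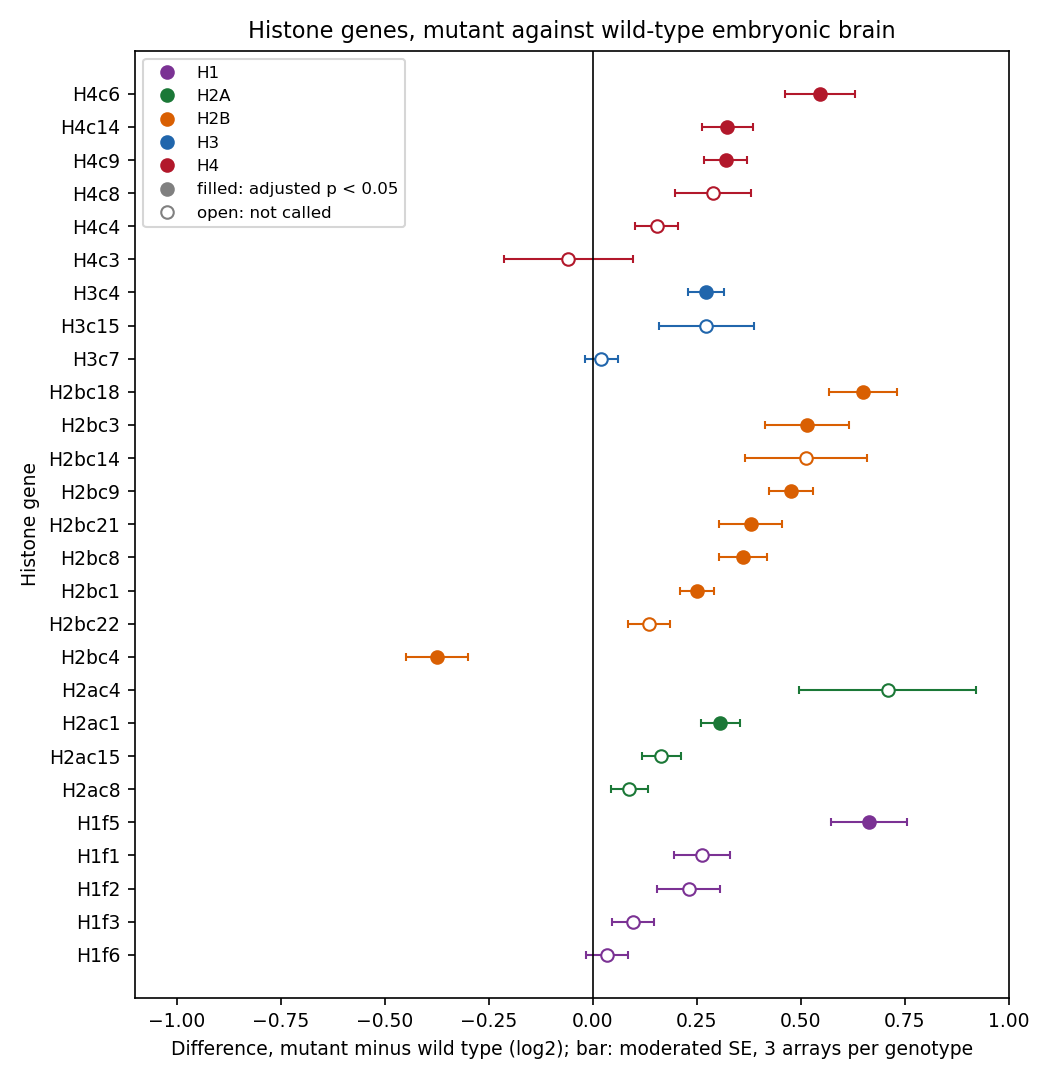
Difference between mutant and wild-type brains (log2, horizontal axis) for the 27 histone genes, coloured by family, with moderated standard errors (3 arrays per genotype) and filled circles for genes at an adjusted p under 0.05. All but H2bc4 and H4c3 lie above 0, and the 12 filled circles on the right lie between 0.25 and 0.66.

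H2B was the family with the most rises. Of 9 H2B genes, 6 rose and 1 fell, with a median of 0.38. On leaving out wild-type replicate 2 the rises numbered 3, on leaving out mutant replicate 2 they numbered 1, and on leaving out wild-type replicate 1 or mutant replicate 3 they numbered 4. H2bc18, an H2B gene of the chromosome 3 cluster, had centred values of -0.41, -0.35 and -0.19 in wild-type brains against 0.19, 0.39 and 0.43 in mutant brains. It rose by 0.65 ± 0.08, 1.57-fold (limma adjusted p = 0.0077, n = 3 per genotype). Wild-type replicate 3 and mutant replicate 1 were the closest pair of brains from the 2 genotypes, and the groups did not overlap.

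H2bc9, on chromosome 13, had values of -0.17, -0.27 and -0.24 in wild-type brains against 0.17, 0.26 and 0.32 in mutant brains. It rose by 0.48 ± 0.05 (limma adjusted p = 0.0056), the smallest p among the histone genes. It was also the histone gene whose rise passed with any 1 array left out, with a highest adjusted p of 0.043. H2bc3 rose by 0.51 ± 0.10, H2bc8 by 0.36 ± 0.06 and H2bc1 by 0.25 ± 0.04. H2bc1 encodes the H2B variant known from testis, and its genotypes were each tight, at -0.17 to -0.11 in wild-type brains against 0.11 to 0.14 in the mutants. H2bc21, the H2B variant known from olfactory sensory neurons, rose by 0.38 ± 0.08, with values of -0.33, -0.33 and -0.08 against 0.08, 0.21 and 0.12. The call of H2bc8 was lost on leaving out mutant replicate 2, and that of H2bc1 on leaving out either replicate numbered 2. The calls of H2bc3 and H2bc21 were both lost when any 1 of wild-type replicates 1 and 2 and mutant replicates 2 and 3 was left out.

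H2bc4 went the other way. This gene, formerly Hist1h2bc, is one of the H2B genes whose transcripts can also be polyadenylated in cells that no longer divide. Its values were 0.19, 0.09 and 0.37 in wild-type brains against -0.18, -0.09 and -0.20 in mutant brains. Every mutant lay below every wild type, and the gene fell by 0.37 ± 0.08 on the log2 scale, 1.30-fold (limma adjusted p = 0.028). The call was lost on leaving out wild-type replicate 1, mutant replicate 2 or mutant replicate 3, with adjusted p up to 0.095. Of the other H2B genes, H2bc14 had a difference of 0.51 ± 0.15 that did not pass (adjusted p = 0.083). Wild-type replicate 3 lay at 0.02 and mutant replicate 1 at -0.02, so its groups overlapped. H2bc22 had a difference of 0.14 (adjusted p = 0.17).

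Promoters of 6 of the genes that rose are shown because the H2B octamer, the letters ATTTGCAT bound by the POU factor Oct-1, is the best known family-specific element of histone promoters. RefSeq promoter windows (build GRCm38.p6) were found for 23 of the 27 genes, and the 250 bases before each start were searched on both strands. The octamer was present in 5 of 7 H2B windows, on the strand of the gene, and in 3 of 4 H2A windows, on the opposite strand, and in 0 of 5 H1, 0 of 2 H3 and 0 of 5 H4 windows. The octamers of H2ac8 and H2ac1 are the same elements as those of H2bc8 and H2bc1, which start close by on the other strand, so the 8 genes hold 6 distinct octamers. Among all 32851 windows of the table, 1.60% held it. The letters CCAAT were present in 19 of 23 histone windows and 33.9% of all windows, and the letters TATAAA in 14 of 23 and 12.4%. None of these 3 motifs overlapped another in the stretches below, which run 5′ to 3′ on the strand of the gene and end at the base before the listed start. Capitals mark the octamer, CCAAT and TATAAA on either strand.
H2bc18, chr3:96269550-96269699, plus strand: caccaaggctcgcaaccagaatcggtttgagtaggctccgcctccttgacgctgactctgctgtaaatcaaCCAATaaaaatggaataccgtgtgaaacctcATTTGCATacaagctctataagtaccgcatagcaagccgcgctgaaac
H2bc3, chr13:23746584-23746733, plus strand: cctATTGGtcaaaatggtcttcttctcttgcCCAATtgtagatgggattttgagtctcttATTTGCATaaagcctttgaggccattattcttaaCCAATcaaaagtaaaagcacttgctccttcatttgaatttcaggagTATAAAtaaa
H2bc8, chr13:23571221-23571399, plus strand: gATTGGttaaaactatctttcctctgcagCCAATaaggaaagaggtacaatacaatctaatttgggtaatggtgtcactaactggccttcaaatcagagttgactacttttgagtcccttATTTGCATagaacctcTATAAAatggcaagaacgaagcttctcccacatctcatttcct
H2bc9, chr13:23543445-23543594, minus strand: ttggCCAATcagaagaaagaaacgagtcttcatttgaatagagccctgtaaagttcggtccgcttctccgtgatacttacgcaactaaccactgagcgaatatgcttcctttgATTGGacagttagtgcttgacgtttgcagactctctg
The octamer begins 48 bases before the start in H2bc18, 59 in H2bc8 and 90 in H2bc3. H2bc9, which rose with the smallest p, has none in the window searched. The 8 genes with an octamer had a median difference of 0.44, with 5 rises, and the 15 without had a median of 0.26, with 5 rises. H2bc4, which fell, and H2bc21, H3c7 and H4c14 had no window and are in neither group. All 8 are H2B or H2A genes, and every H1, H3 and H4 gene with a window is among the 15. The octamer thus cannot be told apart from family here. The octamer genes ranged from 0.09 to 0.71 and the others from -0.06 to 0.66, so their ranges overlapped, and the 8 include both genes of 2 shared promoters. A match of letters is a description of the sequence and not of binding.

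In all 4 H2A genes every mutant lay above every wild type, against 13.1% of all rows, and 1 rose. H2ac1, which encodes an H2A variant known from testis, had values of -0.16, -0.21 and -0.11 in wild-type brains against 0.11, 0.16 and 0.18 in mutant brains. It rose by 0.31 ± 0.05 (limma adjusted p = 0.012), a call lost on leaving out either replicate numbered 2. H2ac1 and the H2B gene H2bc1 are transcribed away from each other from starts 280 bases apart, and the 250 bases before H2ac1 hold 1 octamer, on the strand of H2bc1.
H2ac1, chr13:23934187-23934436, plus strand: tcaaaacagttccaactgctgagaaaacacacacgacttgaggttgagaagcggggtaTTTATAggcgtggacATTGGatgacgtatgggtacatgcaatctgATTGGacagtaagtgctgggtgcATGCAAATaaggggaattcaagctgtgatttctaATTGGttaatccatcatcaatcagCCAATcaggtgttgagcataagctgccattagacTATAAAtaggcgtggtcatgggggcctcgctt
The pair had similar differences, 0.31 for H2ac1 and 0.25 for H2bc1. H2ac8 and H2bc8 form a second such pair, with 179 bases between their starts, and their values were less alike, 0.09 ± 0.04 for H2ac8 (adjusted p = 0.31) and 0.36 for H2bc8. H2ac4 had a difference of 0.71 ± 0.21, the highest of the histone genes with all 6 arrays, and did not pass (adjusted p = 0.094). It was 0.47 on leaving out wild-type replicate 1, below H2bc18 and H1f5 at 0.60 each in that fit. Its values were -0.94, -0.41 and -0.01 in wild-type brains against 0.01, 0.43 and 0.32 in mutant brains. Its wild types were spread more widely than the mutants, and the groups were only 0.03 apart. H2ac15 had a difference of 0.16 (adjusted p = 0.084).

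Among linker histones 1 of 5 rose. H1f5 had values of -0.44, -0.29 and -0.18 in wild-type brains against 0.18, 0.43 and 0.48 in mutant brains. It rose by 0.66 ± 0.09, 1.58-fold (limma adjusted p = 0.0098), the largest rise among the histone genes called. H1f5 and H2bc18 were the 2 genes past the 1.5-fold limit. Both lost their calls without mutant replicate 2, with adjusted p of 0.061 and 0.056. The stretch before the start of H1f5 is shown as an H1 promoter for comparison with those of H2B, with CCAAT on each strand and TATAAA 28 bases before the start.
H1f5, chr13:21780626-21780775, minus strand: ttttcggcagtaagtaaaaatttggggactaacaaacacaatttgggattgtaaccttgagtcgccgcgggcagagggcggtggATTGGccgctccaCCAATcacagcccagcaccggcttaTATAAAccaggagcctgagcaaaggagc
The other H1 genes formed a series of smaller differences that did not pass. H1f1 stood at 0.26 ± 0.07 (adjusted p = 0.057), H1f2 at 0.23 ± 0.08 (0.12) and H1f3 at 0.10 ± 0.05 (0.32). H1f6, the linker histone of testis, had a difference of 0.03 ± 0.05 (adjusted p = 0.77), and its groups overlapped, at -0.03 to 0.02 in wild-type brains against -0.05 to 0.09 in the mutants. The median over the 5 H1 genes was 0.23, and 0.14 without wild-type replicate 1.

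The core histones H3 and H4 had medians of 0.27 over 3 genes and 0.30 over 6. H3c4 rose by 0.27 ± 0.04 (limma adjusted p = 0.013), with values of -0.20, -0.12 and -0.12 in wild-type brains against 0.15, 0.12 and 0.12 in mutant brains. Its 2 groups were each tight, and the call was lost on leaving out either replicate numbered 2. H3c15 had nearly the same difference, 0.27 ± 0.11, but did not pass (adjusted p = 0.21). Its wild-type replicate 1 stood at -0.44 and the other two wild types at -0.01, and the difference was 0.13 on leaving out that array (limma adjusted p = 0.29). H3c7 had a difference of 0.02 ± 0.04 (adjusted p = 0.83), with all 6 values between -0.05 and 0.02. The H3 median was 0.13 without wild-type replicate 1.

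Of the H4 genes 3 rose. H4c6 rose by 0.55 ± 0.08, with values of -0.52, -0.30 and -0.17 in wild-type brains against 0.17, 0.24 and 0.23 in mutant brains (limma adjusted p = 0.013). H4c14, on chromosome 3, and H4c9 rose by 0.32 ± 0.06 and 0.32 ± 0.05 (limma adjusted p = 0.024 and 0.015). H4c9 was even among the wild types, at -0.13, -0.13 and -0.11. H4c8 and H4c4 had differences of 0.29 (adjusted p = 0.11) and 0.15 (0.13) with groups that did not overlap. H4c3 had a difference of -0.06 ± 0.15 (adjusted p = 0.89), with wild-type replicate 3 at 0.44 and the other wild types at -0.09 and -0.15. Its sign turned without wild-type replicate 3 (0.13). All 3 rises of H4 genes were lost without wild-type replicate 2, and again without mutant replicate 2, and that of H4c14 also on leaving out wild-type replicate 1 or mutant replicate 3.

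**Figure D2:**
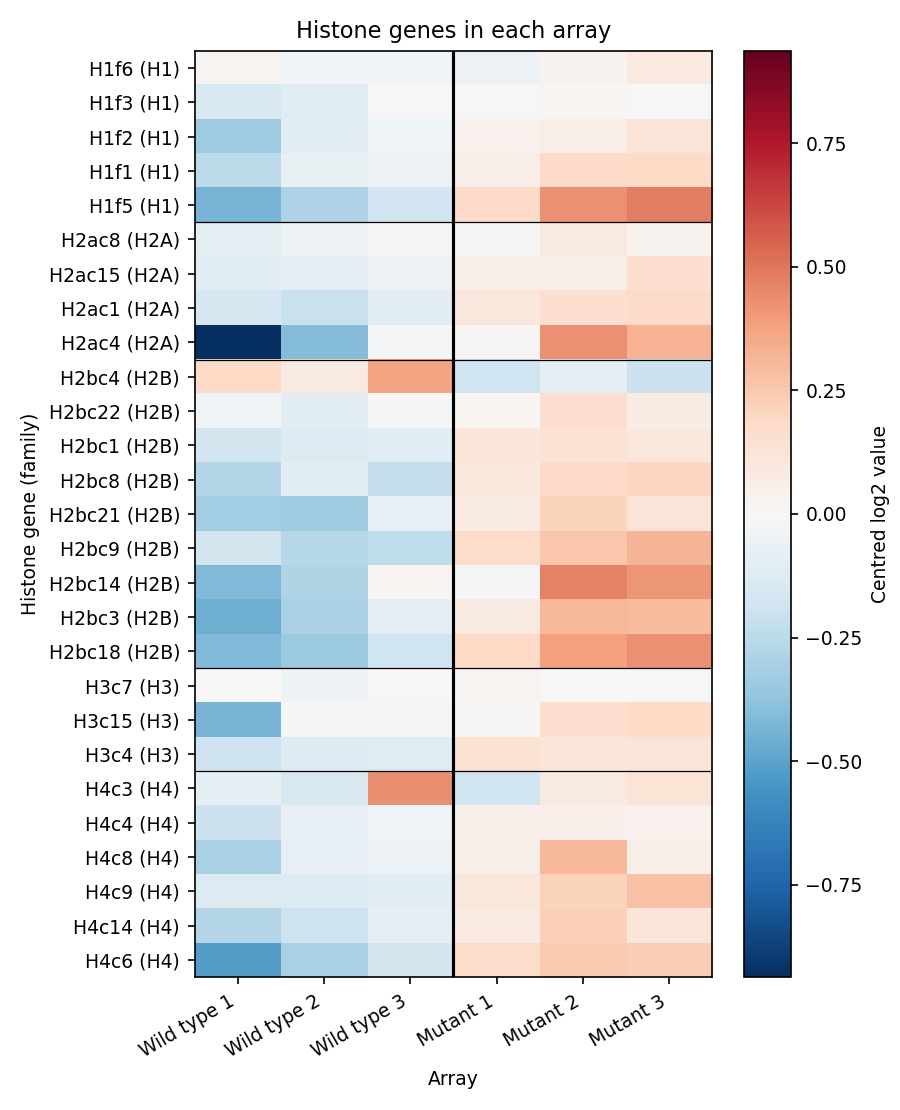
Centred log2 values of the 27 histone genes (rows, grouped by family) in the 6 arrays (columns; the vertical line separates wild type from mutant), with red above and blue below the row median. Wild-type replicate 1 holds the lowest value of 19 genes, and mutant replicates 2 and 3 the highest of 12 and 11, while H2bc4 shows the opposite pattern.

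The brains of 1 genotype were not alike. Wild-type replicate 1 had the lowest of the 3 wild-type values in 19 of 27 genes and wild-type replicate 3 the highest in 23. Among the mutants, replicate 1 was lowest in 20 genes. The median over the 27 genes was -0.20, -0.12 and -0.05 in wild-type replicates 1, 2 and 3 and 0.06, 0.16 and 0.12 in the mutants. The median range within a genotype was 0.19 for the wild types and 0.13 for the mutants. The median difference of 0.27 between genotypes was thus larger than the median range within either one, though wild-type replicate 3 and mutant replicate 1 lay close together. It did not hold for every gene, as the wild types of H2ac4 and of H3c15 ranged more widely than the difference between genotypes.

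Rows that name several histone genes cannot be assigned to one of them, and rows of the same family list largely the same genes, so they are not independent of each other. In all 17 such rows every mutant lay above every wild type, and 6 rose, with a median of 0.16. The background over all rows tested was 13.1% for that pattern and 2.34% for a rise. The 10 rows naming 12 H3 genes had differences of 0.15 to 0.21, and 5 of them rose. The 5 rows naming 11 H4 genes had differences of 0.13 to 0.16, and none of them passed by limma. The row of H4c17 and H4c11 had a difference of 0.33 (adjusted p = 0.096), and the row of H2bc6 and the linker gene H1f4 rose by 0.40 (limma adjusted p = 0.028). The number of rises was 0 when any 1 of wild-type replicates 1 and 2 and mutant replicates 2 and 3 was left out, 1 on leaving out wild-type replicate 3 and 4 on leaving out mutant replicate 1. By limma 16 of these rows had an unadjusted p under 0.05 without mutant replicate 2. The share over all rows in that fit was not counted, so this number stands without a background. The coding sequences of these genes are near copies, so a single-gene row may also pick up transcripts of other copies, and its gene name is uncertain to that degree. The part of this in the single-gene values was not tested.

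Of the 9 rows that list histone genes beside others, 7 name H4bc24, a gene formerly called Hist1h2br, with H2B genes, 14 or 15 genes in all, and rose by 0.29 to 0.34. The other two list 19 or 20 genes, mostly H2A genes with the replacement histone H2ax, and rose by 0.29 and 0.19. The 4 genes formerly in the Hist3h and Hist4h groups had every mutant above every wild type, against 13.1% of all rows, and did not pass. H2aw, H2bu2 and the pseudogene H2bu1-ps lie on chromosome 11 and had differences of 0.16 (adjusted p = 0.058), 0.33 (0.076) and 0.17 (0.16). H4f16, on chromosome 6, had a difference of 0.37 (adjusted p = 0.088).

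Tdp2 lies on the same chromosome as the main histone cluster, so histone genes were compared by place. The 23 genes of chromosome 13 had a median of 0.26, with 9 rises and 1 fall, and the 4 genes of chromosome 3 had a median of 0.35, with 3 rises. Rises were thus present on both chromosomes. On chromosome 13 they numbered 3 on leaving out wild-type replicate 2 and 1 on leaving out mutant replicate 2, and on chromosome 3 they numbered 1 on leaving out either of wild-type replicates 1 and 2, or mutant replicate 3, and 0 on leaving out mutant replicate 2. On chromosome 13 the RefSeq gene order gives 52 histone genes in 2 groups, separated by 41 other protein-coding genes, many of them vomeronasal receptor genes. The 5 measured genes of the group farther from Tdp2, H2bc14, H2ac15, H1f5, H2bc22 and H4c9, had a median of 0.32 with 2 rises. The 18 of the nearer group had a median of 0.26, with 7 rises and 1 fall. H2ac1 and H2bc1 are the members nearest to Tdp2, with differences of 0.31 and 0.25.

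Genes of other kinds in the same stretch had medians near 0, and their difference from the histone genes was not tested. Many of them are vomeronasal receptor, olfactory receptor or prolactin-family genes. Levels are centred away, so whether these genes were expressed in the brains could not be read. A gene that is not expressed would also lie near 0. Of 50 protein-coding genes lying between the outermost histone genes, 41 were measured, some of them inside the 2 histone groups. None of these 41 passed by limma (1 higher and 0 lower at an unadjusted p under 0.05). Their median was 0.02, with a range from -0.07 to 0.16. Small as they were, 34 of the 41 differences were above 0, against 56.8% of all rows. Of 7 measured genes between the cluster and Tdp2, Gmnn, the replication licensing inhibitor geminin, rose by 0.19, while Acot13 and Carmil1 fell by 1.26 and 0.24. Here 3 of the 7 differences were above 0. Among 15 measured genes beyond the far end of the cluster none passed by limma, with 3 higher at an unadjusted p under 0.05. Here 12 of the 15 differences were above 0. Among 16 beyond Tdp2, Nrsn1 fell by 0.44, with 0 higher and 4 lower by limma at an unadjusted p under 0.05. D130043K22Rik, Aldh5a1 and Gpld1, the measured genes nearest Tdp2 on that side, had differences of -0.30, -0.42 and -0.20. These did not pass (limma adjusted p = 0.10, 0.062 and 0.052), and 7 of the 16 differences were above 0. Between the cluster and Tdp2 the number of rises was 0 with any single array left out other than mutant replicate 1, and the number of falls was 1 on leaving out any array but wild-type replicate 1 or mutant replicate 1. Beyond Tdp2 the number of falls was 0 when any 1 of wild-type replicates 1 and 2 and mutant replicates 2 and 3 was left out, 2 on leaving out wild-type replicate 3 and 3 on leaving out mutant replicate 1.

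**Figure D3:**
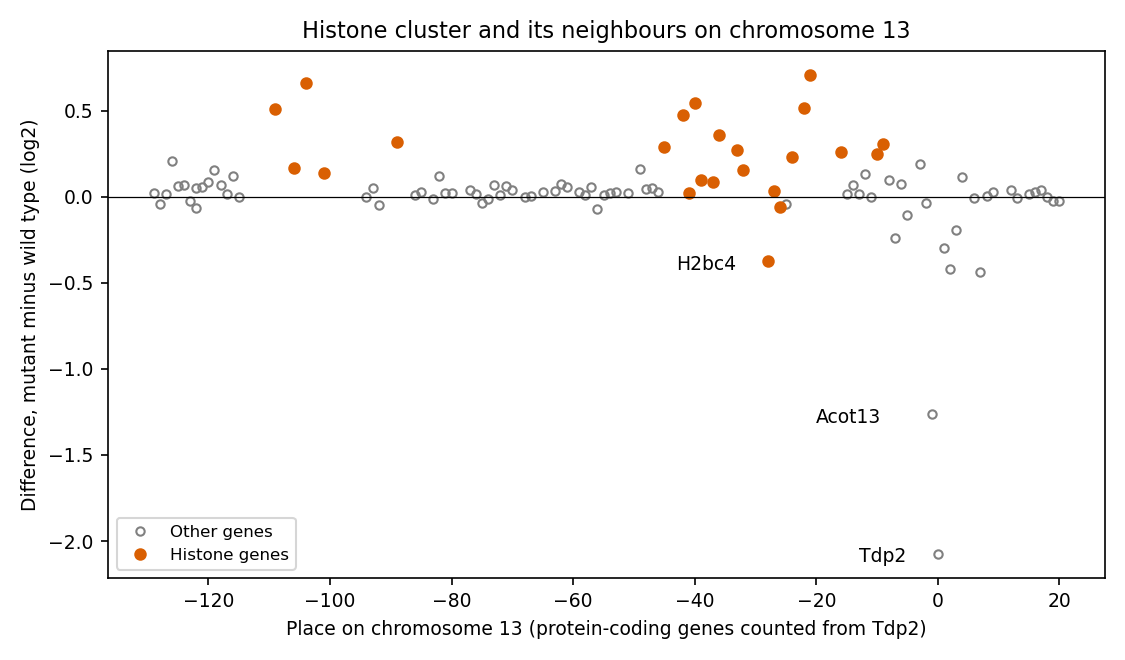
Difference between mutant and wild type (log2, vertical axis) for measured genes of chromosome 13 by their place in the gene order, counted in protein-coding genes from Tdp2 at 0, with histone genes as filled circles and other genes as open circles. The histone genes lie mostly above 0 in both groups. The 41 measured other genes between the outermost histone genes, some of them inside the groups, lie from -0.07 to 0.16.

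The genes that make and process histone messages had a lower median than the histone genes, a difference that was not tested. Of 24 in a list of this machinery, 5 rose and none fell (limma, with 10 higher and 1 lower at an unadjusted p under 0.05), and the median was 0.11. Cdk2, the kinase that activates Npat, rose by 0.51 (limma adjusted p = 0.0087). Casp8ap2, also called FLASH, a processing factor of histone pre-mRNA, rose by 0.32 (limma adjusted p = 0.019). The cap-binding subunit gene Ncbp1, the H4 transcription factor gene Hinfp and the exonuclease gene Eri1, which trims the histone stem-loop, rose by 0.27, 0.21 and 0.23. Npat itself had a difference of 0.13 (adjusted p = 0.14) and Slbp of 0.12 (adjusted p = 0.48), so neither passed. Rises numbered 2 on leaving out wild-type replicate 1, 1 on leaving out wild-type replicate 2 or mutant replicate 3, 3 on leaving out wild-type replicate 3 and 0 on leaving out mutant replicate 2.

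Histone chaperones hold new histones and deposit them on DNA. Of 19 measured, 4 rose and 0 fell (limma, with 9 higher and 1 lower at an unadjusted p under 0.05). The median was 0.21, with a range from -0.29 to 0.43, and 4 of the 19 differences were below 0. Asf1b, the H3-H4 chaperone of dividing cells, rose by 0.43 (limma adjusted p = 0.0054). The subunits of chromatin assembly factor Chaf1b, Chaf1a and Rbbp4 rose by 0.36, 0.21 and 0.21. The count was 2 on leaving out wild-type replicate 1 or mutant replicate 3, and 1 on leaving out either replicate numbered 2.

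Of 9 replication-independent histone genes measured, 3 rose and all had positive values, with a median of 0.19. These were Cenpa, the centromere H3 variant, by 0.61, H2az2 by 0.42 and H2az1 by 0.41. Macroh2a1 had a difference of 0.19 (adjusted p = 0.067). None passed without mutant replicate 2.

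Genes of dividing cells moved in the same arrays. Of 24 S phase and replication genes, 15 rose, with a median of 0.35. In all 24 every mutant lay above every wild type. Over all rows tested 2.34% rose and 13.1% had that pattern. The replication clamp gene Pcna rose by 0.37, the ribonucleotide reductase gene Rrm2 by 0.57 and the helicase gene Mcm2 by 0.48. Of 19 mitosis genes all rose, with a median of 0.58, among them Mki67 by 0.56 and Top2a by 0.72. The medians of the S phase list were -0.32, -0.13 and -0.13 in wild-type replicates 1, 2 and 3 and 0.11, 0.22 and 0.19 in the mutants, so wild-type replicate 1 was lowest and mutant replicate 1 the lowest mutant, as in the histone genes. The mitosis medians were -0.46, -0.21 and -0.20 against 0.19, 0.37 and 0.41. On leaving out wild-type replicate 2 the S phase count was 6, on leaving out mutant replicate 3 it was 8 and on leaving out mutant replicate 2 it was 1. The mitosis count was 2 on leaving out mutant replicate 2. The part of dividing cells in the histone values was not tested.

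Markers of other cells were set beside the histone genes. Of 15 mature neuron genes 9 fell, with a median of -0.50. The neuron medians ran from 0.11 to 0.24 in wild-type brains against from -0.37 to -0.11 in the mutants, opposite in sign to the histone medians. Centring fixes these signs wherever the genotypes do not overlap, so they add nothing to the difference between genotypes. On leaving out wild-type replicate 2 the number that fell was 4, and on leaving out mutant replicate 2 it was 1. H2bc4 also fell, as did 4.13% of all rows tested, and a link between it and this list was not tested. Of 10 red-cell genes 2 rose, Hbb-y by 3.79 and Hba-x by 1.44, both globin genes of embryonic red cells. The rise of Hbb-y was the highest difference of all rows tested. The list median was 0.06. The range of that list's array medians was -0.06 to -0.03 in wild-type brains against 0.01 to 0.04 in the mutants. Of 13 microglia and leukocyte genes none passed by limma (0 higher and 1 lower at an unadjusted p under 0.05), with a median of -0.0061. Of 11 meningeal and fibroblast genes 2 fell, Ogn and Slc6a13, with a median of -0.16. Their count was 1 on leaving out any 1 wild type or mutant replicate 3, and 0 on leaving out mutant replicate 2. Levels are centred away, so whether a marker was absent could not be read, and the part of these cells in the histone values was not tested.

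**Figure D4:**
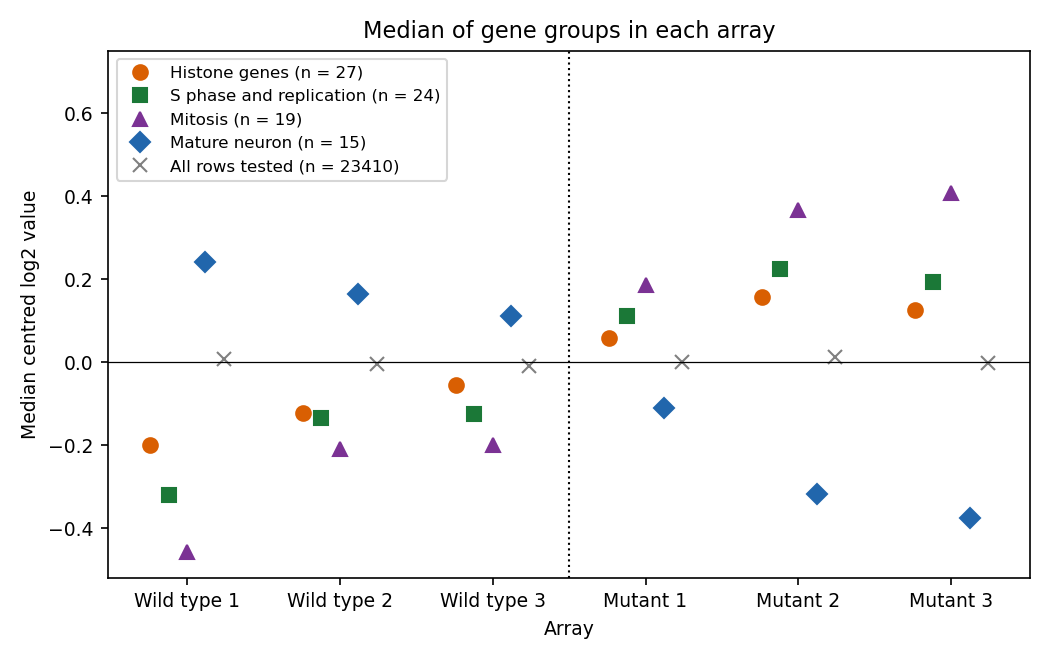
Median centred log2 value (vertical axis) of the 27 histone genes, 24 S phase genes, 19 mitosis genes, 15 mature neuron genes and all 23410 rows tested in each of the 6 arrays. The histone, S phase and mitosis medians are below 0 in every wild type and above 0 in every mutant. The neuron medians are the reverse, and all rows stay near 0. Centring fixes the signs wherever the genotypes do not overlap.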

How the data were processed

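The deposited table held log2 values from 6 arrays. Per the series text the authors made these log2 values by RMA (Robust Multi-Array Average). Affymetrix Expression Console is the tool in the submitters' processing notes, where no version is given. The table states no log base, and RMA gives log2. Each row's median was 0 to within 5e-07, a centring that the labels do not describe, so no filter on dim probes was possible. The labels name 2 labelling kits and the build of the array is not given in the sources used here.

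Rows were named through the platform annotation, and symbols were updated by gene identifier with a RefSeq table of GRCm38.p6, which held 21698 of 21789 single-gene rows. It gave gene order and no printed gene coordinates. Rows naming a gene (23410) were fitted with limma 3.58.1 in R 4.3.3 (lmFit, eBayes, two-sided, Benjamini-Hochberg) and called at an adjusted p under 0.05. Errors are moderated SEs. Lists used 1 row per gene, that with most accessions. Histone genes called, the 5 highest and 5 lowest, the smallest p of each family, list members called or of smallest p, and Tdp2, Npat, Slbp, Mki67, Top2a and Pcna were to be named; in long lists examples stand for the rest. The histone genes and the lists were chosen with earlier results of these data known. No list was given a test. The fit was tested on simulated rows of independent normal noise, which checks the code and not these results. Figures were drawn with matplotlib 3.10.9.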

Additional observations from a re-analysis of the deposited data

How the results depend on the processing

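Leaving out 1 array gave 1 to 14 histone rises and 0 to 1 falls, and Tdp2 stayed between -2.18 and -1.96. Leave-one-out medians were 0.23 to 0.33 over the histone genes, 0.14 to 0.29 for H1, 0.21 to 0.26 for H2A, 0.34 to 0.46 for H2B, 0.13 to 0.29 for H3 and 0.24 to 0.34 for H4. They were 0.0083 to 0.029 for genes between histone genes, -0.071 to -0.017 between the cluster and Tdp2, 0.037 to 0.082 beyond the cluster and -0.024 to 0.0090 beyond Tdp2. For the lists they were 0.08 to 0.14 for histone message processing, 0.12 to 0.23 for chaperones, 0.16 to 0.26 for replication-independent histones, 0.29 to 0.40 for S phase and 0.51 to 0.63 for mitosis. They were -0.63 to -0.36 for neurons, 0.049 to 0.089 for red cells, -0.030 to 0.010 for microglia and -0.22 to -0.10 for meninges.

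Array weights called 20 histone rises (2644 rises over all rows) and gave an H3 median of 0.19 and medians of -0.071 between the cluster and Tdp2, 0.083 beyond the cluster and -0.036 for microglia. A plain two-sided t-test with no moderation called 0 rises and 0 falls among histone genes, and 0 of all rows, after adjustment. At an unadjusted p under 0.05 it gave 17 histone genes higher and 1 lower, and the share over all rows was not counted. Tdp2 at -2.07 did not pass in that t-test (adjusted p = 0.082). The 1.5-fold limit left 2 rises and 0 falls, and an unadjusted p gave 21 rises. With several-gene rows included the median was 0.20. The median of genes between histone genes was 0.016 with array medians set equal, 0.010 with cyclic loess and 0.011 with quantile normalization. Cyclic loess gave -0.39 for neurons and 0.047 for red cells, and quantile normalization 0.045 for red cells. Those 3 scalings left 12, 12 and 13 histone rises. H4c3 ran from -0.17 to 0.13 over the left-out arrays, with 0.13 on leaving out wild-type replicate 3, 0.04 on leaving out mutant replicate 1 and 0.11 with array weights. H1f6 ran from -0.00029, on leaving out mutant replicate 3, to 0.074. The cause of these shifts was not tested.

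With the replicate number as a block, 17 histone genes rose and 1 fell (904 and 1496 of all rows). The series text speaks of pairs of brains without tying them to numbers. Deviations of same-numbered arrays correlated at 0.21, 0.047 and 0.20. Those of differently numbered arrays correlated at -0.22 to 0.057, the highest being mutant replicate 2 with wild-type replicate 3. Whether the numbers mark pairs was not settled by these values, and the main fit did not pair the arrays.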
